A study of Mus musculus with 249 samples.

Results

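Heat shock and chaperone genes were followed across the brains of F2 mice. They were taken as every probe whose only gene symbol starts with Hspa, Hspb, Hspd, Hspe, Hsph, Hsp90, Dnaja, Dnajb, Dnajc, Cct with a digit or Pdia, or is Calr, Sdf2l1, Bag3 or Cryab. The rule found 108 of the 23388 probes on the array, and these probes name 69 genes. Of these, 68 genes passed the requirement that a probe be measured on at least 90% of the arrays, among 11508 genes that passed in all. Hspa5, the main Hsp70 of the endoplasmic reticulum (ER), had 1 probe, measured on 73.4% of the arrays, and is described apart from the fits. Hspbp1, a nucleotide exchange factor of Hsp70, is a member only through its letters.

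The animals came from an intercross of C57BL/6J and C3H/HeJ, both on an ApoE null background, and ate a high-fat Western diet between 8 and 24 weeks of age. Females and males were included, and sex is not given for each animal. Brain RNA of each animal carried Cy3 and was hybridised on 1 array against Cy5 RNA of a pool that drew equally on all samples. The series holds 249 animals of the 330 that the labels name, all in 1 group with no treated or control subset, and 248 were used because the array of animal 144 stood apart. The number of arrays limits the precision.

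Levels are given as the log10 of animal over pool. A value of 0 is the pool's level, and a step of 0.301 is a factor of 2. A gene's level was the mean of its probes. Since bulk tissue was measured, fewer cells of a type and less RNA per cell cannot be told apart. The median level of 7 measured nerve cell markers ran from -0.0837 to 0.177 over the 248 animals. That of 9 oligodendrocyte markers ran from -0.183 to 0.104, and that of 9 astrocyte markers from -0.151 to 0.0952. As ratios to a pool of the same brains these values show variation between animals and not whether a cell type was present.

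Molecular chaperones bind unfolded proteins and help them to fold or to be degraded. In the cytosol Hsp70 and Hsp90 proteins work with J-domain cofactors (the Dnaj genes), small heat shock proteins and nucleotide exchange factors, and the heat shock factor HSF1 raises many of their transcripts when unfolded protein builds up. The ER has its own set of Hsp70, Hsp90, lectin chaperones and protein disulfide isomerases, raised by the unfolded protein response. Mitochondria hold Hsp60 and Hsp10, and the ring-shaped chaperonin CCT folds actin and tubulin in the cytosol.

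The known binding motifs of these responses lie in the promoters of several members, and the sequences are shown because the genes that hold them are followed below. RefSeq promoters on GRCm38.p6, from 250 bases before to 50 after each gene's start, were found for 56 of the 69 genes. The promoters of Cct4, Cryab, Dnajc11, Dnajc12, Dnajc2, Dnajc22, Dnajc30, Dnajc5, Hsp90aa1, Hspa13, Hspa8, Hspa9 and Hspb2 were not used here. Both strands were searched.

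A heat shock element of 3 units (GAA and TTC in turn, starting with either, with 2 bases of any kind between them) was matched in 4 members, Dnajb6, Hspd1, Hspe1 and Hsph1, and in 0.662% of all 27025 symbols with a promoter. The match in Hsph1 lay past its start. A shorter form of 2 units (GAA, 2 bases, TTC), contained in the longer one, was matched in 14 members and in 9.04% of all symbols. These 14 include Hspa1a, Hspb1, Bag3, Dnaja1, Dnaja4, Hspb6 and Cct2. In the next 3 promoter stretches, written 5′ to 3′ on the gene's strand, capitals mark the matched element. Hspa1a is at chr17:34972223-34972290 on the minus strand, Hspb1 at chr5:135887772-135887859 on the plus strand and Hspe1 at chr1:55088029-55088106 on the plus strand.
Hspa1a: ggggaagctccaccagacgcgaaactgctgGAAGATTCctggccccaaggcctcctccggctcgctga
Hspb1: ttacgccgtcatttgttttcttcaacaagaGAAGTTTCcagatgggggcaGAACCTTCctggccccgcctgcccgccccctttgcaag
Hspe1: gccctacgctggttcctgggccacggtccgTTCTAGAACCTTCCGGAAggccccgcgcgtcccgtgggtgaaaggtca
Hspe1 encodes mitochondrial Hsp10 and starts at position 55088148 of chromosome 1. Hspd1, which encodes Hsp60, is on the opposite strand, and RefSeq gives it starts at 55088243 and 55087932. The stretch shown lies between the latter and the start of Hspe1.

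The ER stress element (CCAAT, 9 bases of any kind, then CCACG) was matched in Calr, Dnajc3, Hsp90b1 and Hspa5, and in 0.137% of all symbols. A shorter element (ATTGG, 1 base of any kind, then CCACG) was matched in Dnajb11 past its start, and in 0.0444% of all symbols. Pdia4, Sdf2l1 and Pdia3 had no match to either, which says only that these letters are not in this window. In the next 4 stretches capitals mark the element. Hsp90b1 is at chr10:86705503-86705686 and Calr at chr8:84847045-84847123, both on the minus strand. Dnajc3 is at chr14:118937797-118937875 and Hspa5 at chr2:34771995-34772073, both on the plus strand.
Hsp90b1: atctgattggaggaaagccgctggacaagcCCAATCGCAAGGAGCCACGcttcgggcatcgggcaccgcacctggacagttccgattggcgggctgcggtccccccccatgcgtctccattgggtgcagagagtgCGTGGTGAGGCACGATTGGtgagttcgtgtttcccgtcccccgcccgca
Calr: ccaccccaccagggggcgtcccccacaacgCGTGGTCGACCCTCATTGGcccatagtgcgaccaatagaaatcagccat
Dnajc3: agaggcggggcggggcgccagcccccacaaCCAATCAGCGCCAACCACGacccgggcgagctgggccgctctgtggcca
Hspa5: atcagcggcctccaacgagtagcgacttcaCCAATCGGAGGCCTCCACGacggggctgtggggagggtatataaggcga

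As a group the members varied between animals as much as other genes did. The SD over animals had a median of 0.0546 among the 68 members and of 0.0546 among all 11508 genes, and 34 members lay above that of all genes. Among the 10% of genes with the largest SD, which hold 10.0% of all genes by construction, there were 5 members. By role the median SD was 0.0750 for 12 ER genes, 0.0681 for 7 mitochondrial genes and 0.0568 for 22 cytosolic genes. It was 0.0468 for 4 small heat shock genes of muscle, 0.0447 for 13 other J-proteins and 0.0375 for 9 CCT genes.

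Pdia3, an ER disulfide isomerase that works with calreticulin on glycoproteins, varied most among the members. Its level had an SD of 0.191 (n = 248), a lowest value of -0.545, a median of -0.00580 and a highest of 0.366. Between its 5th and 95th percentile lay a factor of 4.23. Dnajc7, a cytosolic J-protein that binds Hsp70 and Hsp90, followed with an SD of 0.173 and ran from -0.531 to 0.237 around a median of 0.0233. Its low tail was long, and a mixture of 2 normals put 35 of the 248 animals in a lower component with a median of -0.342, against 0.0439 for the rest.

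Hspb1, the small heat shock protein Hsp27, ranked next and had an SD of 0.103, with a lowest value of -0.443, a median of -0.0471 and a highest of 0.262. Dnajb11, an ER J-protein that assists Hspa5, had an SD of 0.103 as well, but its extremes of -0.509 and 0.674 were set by animals 318 and 213 and its percentiles spanned a factor of 1.86. Calr, the lectin chaperone calreticulin, had an SD of 0.0964, a lowest value of -0.591 in animal 336, a median of -0.0151 and a highest of 0.355 in animal 178. Pdia4, another ER disulfide isomerase, had an SD of 0.0953 and ran from -0.410 through 0.00957 to 0.191.

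The mitochondrial Hsp70 Hspa9 had an SD of 0.0943, a lowest value of -0.226, a median of -0.0103 and a highest of 0.248. Hspe1 had an SD of 0.0930 and ran from -0.203 through -0.0344 to 0.296. Among all members these 8 varied most, and 4 of them belong to the ER and 2 to mitochondria. The ranking uses the mean of a gene's probes, which varies less where probes disagree. Single probes of Hspd1, Hspa8 and Hspa1a had SDs up to 0.174, 0.13 and 0.13, against 0.0318, 0.0487 and 0.0803 for the means.

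At the other end were Hspa1l, the Hsp70 of germ cells, with an SD of 0.0231, the CCT subunit Cct3 with 0.0249 and the J-protein Dnajb12 with 0.0287. Hspa1l ran from -0.0461 through -0.00514 to 0.129, Cct3 from -0.102 through 0.00463 to 0.161 and Dnajb12 from -0.0582 through -0.000603 to 0.152. The inducible cytosolic Hsp70 Hspa1a had an SD of 0.0803 and ran from -0.214 through -0.0231 to 0.247, a factor of 1.81 between the percentiles.

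**Figure D1:**
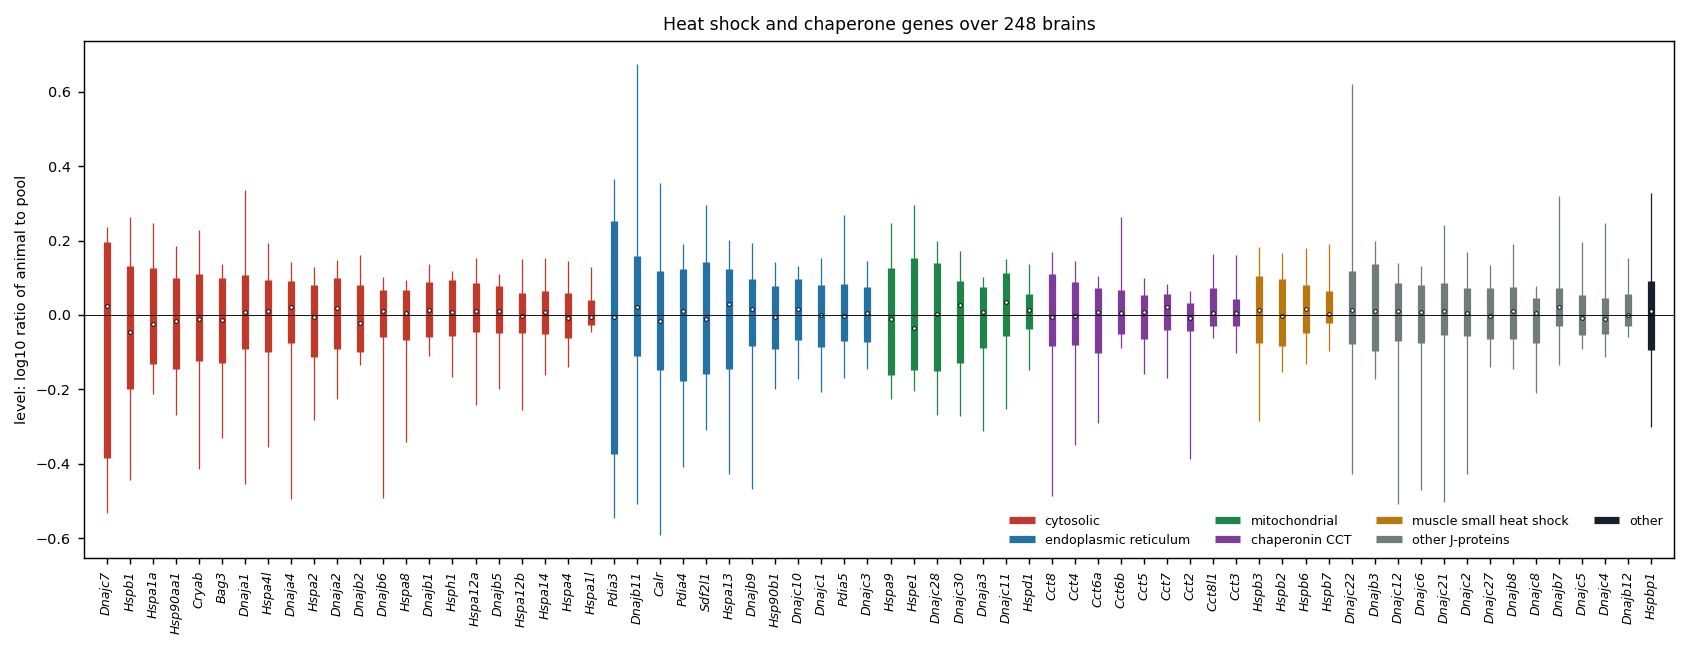
Level of each of 68 member genes over 248 brains, as the log10 ratio of animal to pool, grouped and coloured by role and ordered by SD. Thick bars span the 5th to the 95th percentile, thin lines the lowest to the highest animal, and white points are medians. Pdia3 and Dnajc7 have the longest thick bars, and several genes, among them Dnajb11 and Dnajc22, have short bars with single far animals.

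A few animals set the extremes of many members. Animal 178 was the lowest or highest of all animals for 33 members, animal 336 for 14, animal 213 for 12 and animal 151 for 8, while any other animal held at most 4. The share of all genes with an extreme in these animals is not given here, so the counts are not read as particular to the members. Animal 178 was also lowest in the markers of oligodendrocytes, astrocytes and endothelium and highest in those of nerve cells and microglia. The part of these values in the members' extremes was not tested. Where a normal mixture placed some animals of a gene in a separate component, r is given over the animals of the larger component, with their number. The r with components as covariates is over all 248 animals, and a pair named as the highest or lowest of its role was ranked on r over all 248.

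Each member was asked how it varied with 1 anchor gene per role, by regressing all other genes on the anchor's level with limma. A gene is called at a Benjamini-Hochberg adjusted p under 0.05 over all 11507 other genes. Many genes of the array were called with any anchor, so each count of members is read against that share. The 5 largest principal components of all genes carried 13.8%, 11.2%, 5.85%, 4.23% and 4.04% of the variance, and each fit was repeated with them as covariates.

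In the 77 pairs named here, r and Spearman's rho each had a permutation p of 1e-05, the smallest that 100000 permutations of animals can give, in 61. The p-values are printed for the others. Of the 77 pairs, 61 were named by a rule and 16 were chosen after their values were seen. They come from 2278 pairs of members, of which 200 had an absolute r above 0.5.

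The cytosolic heat shock genes Hspa1a and Hspb1 rose and fell together. Over 248 animals r was 0.698, rho 0.698 and the adjusted p 9.09e-34. Hspa1a is on chromosome 17 and Hspb1 on chromosome 5. The correlation was 0.684 without the 2 animals farthest from the median of Hspa1a, 0.728 without animals 151, 178, 213 and 336, and 0.718 with the 5 components as covariates. It was 0.765 in the 124 animals with the lower numbers and 0.645 in the 124 with the higher.

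Hsph1, the Hsp110 exchange factor that restarts the Hsp70 cycle, followed Hspa1a with r of 0.457 and rho of 0.375 (n = 248, adjusted p 4.40e-11). With the components as covariates its r was 0.576. The single Hspa1a probes had r of 0.0719 and 0.526 with Hsph1, the latter from the probe of larger SD, so this pair rests mainly on 1 probe. The collagen chaperone Serpinh1, a heat shock target outside the members, had r of 0.407 and rho of 0.460 with Hspa1a (n = 248, adjusted p 6.20e-09), and r of 0.585 with Hspb1. Between Hspb1 and Hsph1 r was only 0.134 (n = 248, permutation p 0.0349), rho was 0.111 (p 0.0809) and the adjusted p was 0.0699. With the components that pair had an r of 0.454 and an adjusted p of 3.65e-11.

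Across the members, 12 of 67 were called higher and 6 lower with Hspa1a, against 13.0% of all genes higher and 11.6% lower. With the 5 components as covariates 25 members were higher and 5 lower, against 11.7% and 14.7% of all genes. Hspa4l, another Hsp110, went from r of 0.0672 (n = 247, permutation p 0.292), and rho of -0.00618 (p 0.924), to an r of 0.594 with the components.

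The other called members closest to Hspa1a had a smaller r. The ER J-protein Dnajc1 had r of 0.373 and rho of 0.431 (n = 248), Calr 0.382 and 0.455 (n = 247) and the small heat shock protein Cryab 0.287 and 0.339 (n = 248). Lower with Hspa1a were the ER J-protein Dnajc10 at -0.302 (n = 248, permutation p 2e-05), the ribosome-bound Hsp70 Hspa14 at -0.291 and the ER J-protein Dnajb9 at -0.310 (n = 246). These 3 were at -0.129, -0.0711 and -0.124 with the components, where none was called (adjusted p 0.12, 0.432 and 0.136). Hspa2 at 0.269 (n = 248, permutation p 3e-05) and the J-protein Dnajc28 at 0.262 (n = 248, permutation p 4e-05) completed the 10. With the components Hspa2 was at 0.0983 and not called (adjusted p 0.251), and Dnajc28 was at 0.166 and called (adjusted p 0.038).

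Hspa1l, which neighbours Hspa1a on chromosome 17, had r of 0.115 with it (n = 236, permutation p 0.0803) and rho of 0.0942 (p 0.149). The 2 Hspa1a probes had r of 0.209 with each other, and with Hspb1 they had 0.362 and 0.665, the latter from the probe of larger SD. In the same order they had -0.273 and 0.214 with Hspa4l, 0.395 and 0.287 with Serpinh1, 0.214 and 0.237 with Cryab and 0.455 and 0.197 with Calr. With the probe of larger SD alone Dnajc1 had 0.163 and Dnajb9 -0.0266. Neither probe can be told apart here from the near-identical Hspa1b.

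The 22 measured genes listed for the HSF1 and Hsp90 pathway include Hspbp1 but no other member. Of these, 5 were higher and 2 lower with Hspa1a, against 13.0% and 11.6% of all genes. The list's median r was 0.0363, against -0.00724 over all genes. After Serpinh1, the largest were Bag1, an exchange factor of Hsp70, at -0.355, the stress-induced factor Atf3 at 0.229 and Ier5, a cofactor of HSF1, at 0.207. With Hspb1, 13 of the 22 were higher and 3 lower, against 25.5% and 22.0% of all genes, at a median r of 0.189 against 0.0116. The co-chaperones Cdc37, Fkbp4 and Stip1 had 0.479, 0.474 and 0.400 with it.

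Among all genes that are no members, those of largest absolute r with Hspa1a included the transporter Slc16a4 at -0.507, the activin subunit Inhba at 0.506, Rspry1 at -0.486, the membrane linker Ezr at 0.483 and Derl3, of ER protein degradation, at 0.460. The Y-linked genes Eif2s3y and Kdm5d were also called higher with Hspa1a (adjusted p under 0.05), and no pooled r is given for them because each fell into 2 clusters. With the level of Eif2s3y as a covariate, r of Hspa1a was 0.646 with Hspb1, 0.487 with Hsph1 and 0.391 with Serpinh1.

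Markers of vessel walls moved with these genes. Of 5 measured smooth muscle markers 4 were higher with Hspa1a (median r 0.296), against 13.0% of all genes, and 5 with Hspb1 (median r 0.331), against 25.5%. Of 11 markers of endothelium and pericytes, 6 were higher with Hspa1a and 6 higher and 1 lower with Hspb1. Calponin Cnn1 had r of 0.384 with Hspa1a and 0.521 with Hspb1, and Acta2 0.352 and 0.391. With the components as covariates 3 smooth muscle markers were called higher with Hspa1a and 3 with Hspb1, against 11.7% and 10.1% of all genes. The median level of these 5 markers ran from -0.288 to 0.148 over animals. Their part in the pair of Hspa1a and Hspb1 was not tested.

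Immediate early genes, which neurons and other cells induce within minutes of a stimulus, were called higher with Hspa1a in 8 of 16. The share of all genes called higher was 13.0%. Nr4a2 had r of 0.308, Egr1 0.291, Egr4 0.279 and Arc 0.248. With the components as covariates 1 of 16 was called higher, against 11.7% of all genes. Glucocorticoid-induced genes were called higher in 3 of 12, with Cdkn1a at 0.357, Per1 at 0.276 and Fkbp5 at 0.171, against 13.0% of all genes, but the list's median r was -0.0408, below the -0.00724 of all genes. Of 10 interferon-induced genes 1 was higher, Isg15 at 0.395, and 2 were lower, Ifit3 at -0.206 and Usp18 at -0.165. Of all genes 13.0% were higher and 11.6% lower, so these counts are near the background. Of 8 cerebellar markers 5 were lower, with Pvalb at -0.288, against 11.6% of all genes. With the components 3 were higher and 1 lower, against 11.7% and 14.7% of all genes.

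**Figure D2:**
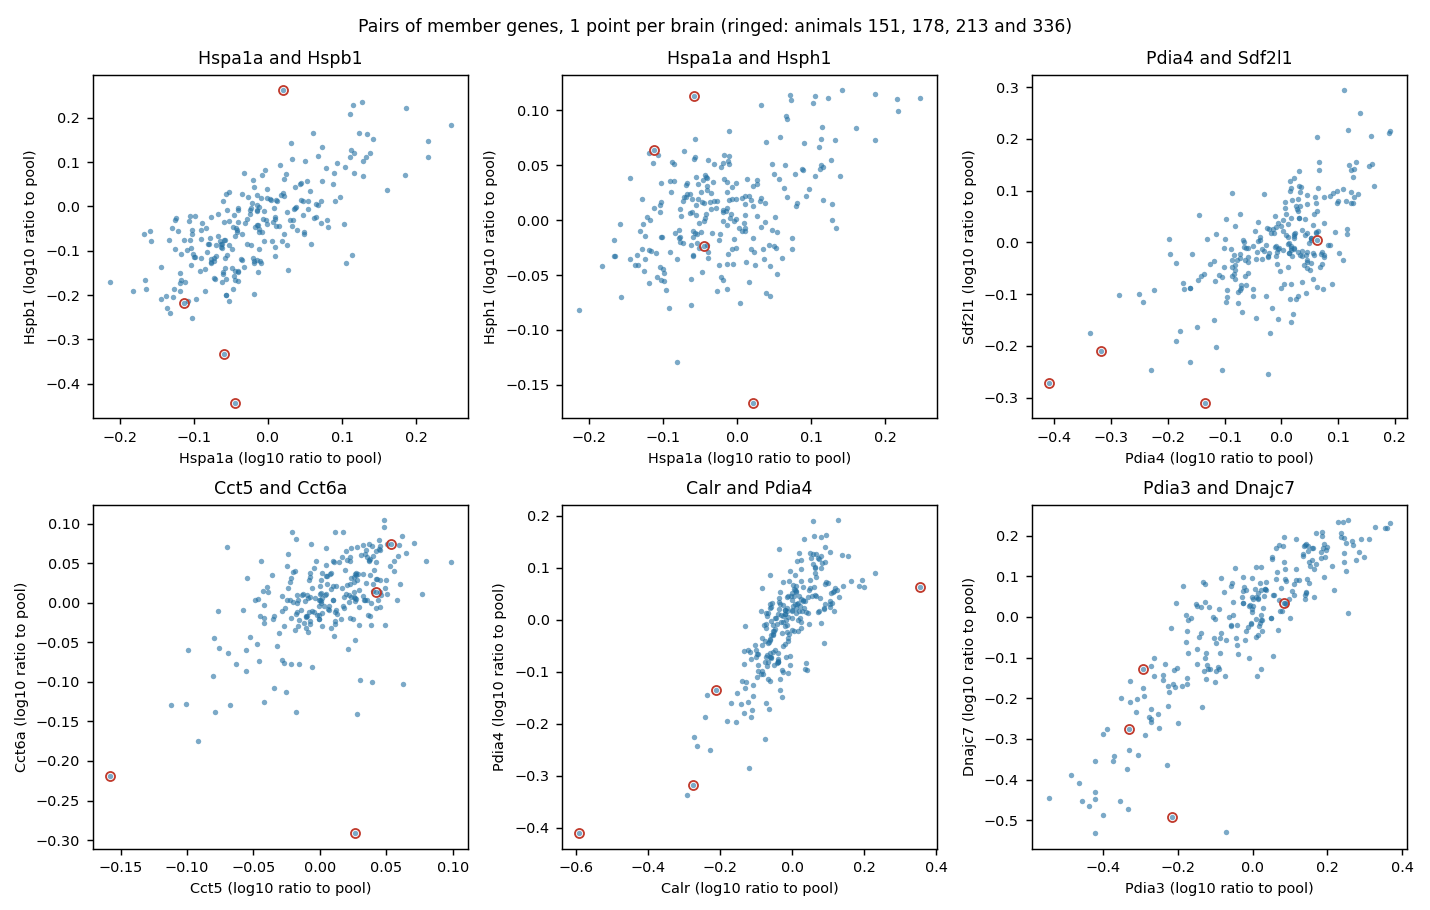
Levels of 6 pairs of member genes, each as the log10 ratio of animal to pool, with 1 point per brain (n = 248). Animals 151, 178, 213 and 336 are ringed. Hspa1a and Hspb1 (r 0.698), Pdia4 and Sdf2l1 and Pdia3 and Dnajc7 form sloping clouds, and the ringed animals lie off several of them.

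In the ER, Pdia4 varied with both Sdf2l1 and Calr. Sdf2l1 is a stress-induced protein of ER quality control. Pdia4 and Sdf2l1 had r of 0.650 and rho of 0.595 (n = 248, adjusted p 1.42e-29), and 0.678 with the components as covariates. Calr and Pdia4 had r of 0.759 and rho of 0.770 (n = 247, adjusted p 6.22e-50), and 0.529 with the components. In the lower and higher animal numbers the r was 0.623 and 0.682 for Pdia4 with Sdf2l1, and 0.734 and 0.815 for Calr with Pdia4.

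The sign was the opposite for Dnajb9 with Calr. Dnajb9, an unfolded protein response target, fell as Calr rose, with r of -0.643 and rho of -0.591 (n = 245), and the pair was the lowest of the 66 in the ER (-0.592 over all animals). With the components its r with Calr was 0.208, of the opposite sign. Over the 66 pairs of 12 ER genes the median r was 0.0651, against -0.000931 over all pairs of genes, and it was 0.0920 with the components.

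Hsp90b1, the ER Hsp90, stood in for Hspa5 as the ER anchor. Its level had an SD of 0.0545 and ran from -0.199 through -0.00691 to 0.141. With it 25 of 67 members were higher and 11 lower, against 22.7% and 26.0% of all genes. With the components 23 were higher and 9 lower, against 18.5% and 24.3%.

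The 10 members with the smallest adjusted p with Hsp90b1 held no ER gene. Hspe1 had r of 0.486 and rho of 0.50 (n = 248), Cct8 0.442 and 0.371 (n = 247), Hspa14 0.415 and 0.397 (n = 248), Dnaja1 0.389 and 0.359 (n = 247), Dnajc2 0.397 and 0.348 (n = 247) and Cct4 0.359 and 0.349 (n = 247). The cytosolic Hsp90 Hsp90aa1 had 0.370 and 0.347 (n = 248), and it alone of these 7 rose with the components, to 0.397, while the other 6 fell to between 0.157 and 0.251. Lower with Hsp90b1 were Hspbp1 at -0.375 (n = 248, permutation p of rho 2e-05), Dnajc30 at -0.308 (n = 226, permutation p of rho 8e-05) and Dnajc11 at -0.310 (n = 239), none of them called with the components.

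Hspa5 itself could be compared in the 182 animals that measured it. Its level had an SD of 0.0778 and ran from -0.251 through -0.0197 to 0.203. There it had r of 0.429 and rho of 0.445 with Hsp90b1 (permutation p 1e-05), 0.343 and 0.323 with Dnajc3, and 0.285 and 0.280 with Sdf2l1 (p 0.00011 and 0.00016). With Pdia4 r was 0.0154 (permutation p 0.837), with Calr 0.0435 (p 0.559) and with Dnajb11 -0.0252 (p 0.735). It also had r of 0.455 and rho of 0.408 with the cytosolic Hspa1a. Hspa5, Hsp90b1 and Dnajc3 share the ER stress element shown above, as does Calr, whose r with Hspa5 was near 0.

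Of 20 other measured genes of the unfolded protein response, 6 were higher and 5 lower with Hsp90b1 (median r -0.0886), against 22.7% and 26.0% of all genes. With Pdia4, 12 were higher and 3 lower (median r 0.266), against 32.6% and 34.0%. The ER exchange factor Hyou1 had r of -0.498 with Hsp90b1 and 0.385 with Pdia4. Herpud1, of ER protein degradation, had -0.432 and 0.490, and Selenok, of the same process, 0.45 and -0.473. Ero1a, the oxidase that recharges the disulfide isomerases, had 0.389 with Hsp90b1. The transcription factor Xbp1 had 0.526 with Pdia4, and Ppib, a proline isomerase, 0.463. With the components as covariates 12 of the 20 were called higher with Pdia4, against 14.1% of all genes. With Hsp90b1, 8 were then higher and 4 lower, against 18.5% and 24.3%, and the median r was 0.0727. The genes closest to Hsp90b1 that are no members were Septin2 at 0.694, the glutamate receptor subunit Gria2 at 0.674, Impact, a regulator of translation under stress, at 0.658 and Igsf21 at -0.620, and with the components they had 0.627, 0.609, 0.641 and -0.531.

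Pituitary hormone genes, carried by a gland at the base of the brain, fell into wide ranges between animals, with a list median from -1.07 to 0.757. Their median r with Pdia4 was 0.0250, and with the components as covariates it was 0.207 and all 7 measured were called higher, against 14.1% of all genes. In that setting 6 were higher with Hsp90b1, 5 with Pdia3, 5 with the cytosolic Hspa1a, 2 with Hspb1 and 1 with Cct5. In the same order 18.5%, 17.9%, 11.7%, 10.1% and 15.3% of all genes were higher, so the count with Cct5 is near the background. With Cryab, Hspd1, Hspe1 and Hspa9 the number was 0. The part of the hormone genes in these values was not tested.

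Pdia3 varied most closely among the members with Dnajc7. Over all 248 animals it had r of 0.534 with Sdf2l1, 0.197 with Pdia4 and -0.158 with Calr. With Dnajc7, in the 213 animals of the larger Dnajc7 component r was 0.829 and rho 0.818, and in the other 35 they were 0.365 (permutation p 0.0315) and 0.486 (p 0.00367). The adjusted p over all genes was 4.29e-77 and r with the components was 0.764. The genes lie on chromosomes 2 and 11. Each is read by 1 probe.

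Close to Pdia3 were also genes that are no members. The heme oxygenase Hmox1 had r of 0.886 and rho of 0.884 (n = 232), and the arginine methyltransferase Prmt1 had r of 0.834, the glycosyltransferase Alg8 0.817 and the trafficking subunit Trappc3 0.808. Of the 20 genes closest to Pdia3, 1 lay on its own chromosome and the 20 were spread over 12 chromosomes. Among the members, 26 were higher and 18 lower with Pdia3, against 21.8% and 31.5% of all genes. With the components these were 11 and 12, against 17.9% and 14.6%. Of 8 microglial markers 6 were lower with Pdia3 (median r -0.341) and 5 with the components, and of 5 smooth muscle markers 4 were lower (median r -0.367) and 1 with the components. Their part in the values of Pdia3 was not tested.

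Among the chaperonin genes the pairwise correlations were the highest of any role. Over 36 pairs of 9 genes the median r was 0.228, with 27 pairs above 0, and it was 0.180 with the components. In the cytosolic role the median over 231 pairs was 0.0449, in mitochondria over 21 pairs 0.0312 and among other J-proteins over 78 pairs -0.0659. Over all 2278 pairs of members it was 0.0113.

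Cct4 and Cct8 were the closest chaperonin pair, with r of 0.670 and rho of 0.668 (n = 247). With the components their r was 0.320. Cct2 and Cct8 had r of 0.233 (n = 247, permutation p 0.00026), 0.484 over all 248 animals and 0.640 with the components. The Cct2 and Cct8 pair differed between animals, at 0.660 in the lower numbers and 0.125 in the higher, and animal 178, the lowest of all for both genes, has a lower number. Lowest was Cct7 with Cct8l1 at -0.592 over all animals, and in the larger component at -0.258 (n = 231, permutation p 7e-05) and rho of -0.253 (p 0.0001).

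Cct5, the chaperonin anchor, had an SD of 0.0375 and ran from -0.158 through 0.00737 to 0.0984. It had r of 0.491 with Cct6a (n = 231), 0.518 with Cct3 and 0.513 with Cct4 (n = 247), with rho of 0.474, 0.483 and 0.535. With the components these were 0.521, 0.415 and 0.403. Tcp1, the remaining subunit of the ring and no member by its letters, had 0.333 with Cct5 and 0.479 with the components, and the prefoldin subunit Pfdn5, which hands proteins to CCT, had 0.265 and 0.315. Of 10 other measured genes of this pathway 6 were higher and 2 lower with Cct5, against 19.2% and 28.1% of all genes. Genes that are no members came closer to Cct5 than any subunit, among them Zfp35 at 0.784, Krba1 at -0.764, the translation factor Eif3i at 0.748 and the mitochondrial translocase Timm23 at 0.716. The level of Cct5 also followed the animal number in the labels, with r of 0.417.

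Called with Cct5 were 23 of 67 members higher and 12 lower, against 19.2% and 28.1% of all genes. With the components 28 were higher and 5 lower, against 15.3% and 18.8%. The ER J-protein Dnajc3, which inhibits the kinases of the stress response, came first with r of 0.527 and rho of 0.530 (n = 248), followed beyond the subunits by Hspa13 at 0.379 (n = 232) and Hspa4l at 0.446 (n = 247). Lower were the clathrin-uncoating cofactor Dnajc6 at -0.425 (n = 245), Dnajc27 at -0.366 (n = 248) and Pdia5 at -0.230 (n = 243, permutation p 0.00041). Of these 3 only Pdia5 was still called with the components, at -0.384. Dnajc10 went from 0.374 to 0.0275 with them.

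In mitochondria the partners Hspd1 and Hspe1, whose products close 1 folding chamber and whose promoters adjoin, had r of 0.255 (n = 246, permutation p 7e-05) and rho of 0.238 (p 0.00013). With the components r was 0.169 (adjusted p 0.0345). Hspd1 was read by 11 probes, which had a median r of 0.0842 with each other and ranged from -0.547 to 0.993. The SD of their mean was 0.0318, with a range from -0.148 through 0.0122 to 0.137. With the probe of largest SD in its place, r of Hspd1 and Hspe1 was 0.0883.

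With the mean of its probes as the anchor, Hspd1 had 31 of 67 members higher and 14 lower, against 25.4% and 32.7% of all genes. With the components there were 17 and 6, against 12.5% and 14.8%, and with the probe of largest SD 3 members were higher. Dnaja1, a J-protein of cytosolic Hsp70, was closest with r of 0.645 and rho of 0.608 (n = 246), followed by Hspbp1 at -0.505, Cct4 at 0.483 and Hspa4l at 0.486 (n = 246). Dnajc4 had -0.447 (n = 244), Cct8 0.426, Dnajb6 0.409 (n = 244), Hspa13 0.395 (n = 231), Hsph1 0.438 and Dnajc12 0.35 (n = 246). Outside the members Plch2 had -0.662, Gpr162 -0.659, the kinase Map2k5 -0.652 and the translation factor Eif1a 0.645. These values rest on a mean of probes that disagree: single Hspd1 probes had r between -0.627 and 0.788 with Dnaja1.

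Hspe1 was read by 2 probes that had r of 0.985 with each other. With it 33 of 67 members were higher and 24 lower, against 36.2% and 36.0% of all genes. With the components 34 were higher and 10 lower, against 17.9% and 21.5%. The mitochondrial J-protein Dnajc30 was the farthest from it at r of -0.669 and rho of -0.655 (n = 226), but -0.0645 with the components (adjusted p 0.544). The proteasome subunit Psma2 at 0.927, Zfp574 at -0.912 and the respiratory chain subunit Ndufa1 at 0.883 were among the genes closest to Hspe1, and they had 0.553, -0.476 and 0.517 with the components. Dnajc11 and Dnajc30 were the closest mitochondrial pair at 0.469 (n = 224), and at -0.118 with the components. Of 8 other measured genes of mitochondrial protein quality control 5 were higher and 1 lower with Hspe1, against 36.2% and 36.0% of all genes, and 3 and 1 with the components. With Hspd1, 2 were higher and 4 lower, against 25.4% and 32.7%, and 1 and 4 with the components, led in the levels as deposited by the protease parts Clpx at 0.390, Clpp at -0.368 and Spg7 at -0.366.

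Many of the genes closest to Hspa9 lay on its own chromosome, 18. Of its 20 closest genes, 17 could be placed and 11 lay on chromosome 18. With the components 19 could be placed and all 19 lay there. The closest genes of Hspa1a, Hspb1, Pdia3, Pdia4, Sdf2l1, Dnajc7 and Dnajc28, by contrast, lay on 10 to 14 chromosomes. Pcdhb3, a protocadherin, had r of 0.705 and rho of 0.724 with Hspa9 (n = 248), and 0.855 with the components. The histidyl-tRNA synthetase Hars had -0.628 (n = 203) and the growth factor Hbegf -0.486 (n = 190), and -0.872 and -0.863 with the components, where r is over all animals. Sil1, an exchange factor of Hspa5 that lies 3 places from Hspa9 in the gene order, had 0.234, and 0.732 with the components. Of the 10 measured genes that flank Hspa9 directly 4 were called, against 42.9% of all genes, and the largest absolute r among them in the levels as deposited was 0.307. With the components 4 of the 10 were called, against 5.47% of all genes higher and 3.88% lower. Pcdhb3, Hars and Hbegf are not among these 10.

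The levels of Hspa9 were also set against a discrete pattern. An F2 intercross gives genotypes in a ratio of 1:2:1 at a locus, so 3 normal components in this ratio with 1 spread were set against 1 normal. A gene is called discrete where the Bayesian information criterion (BIC) gains over 10, the excess kurtosis is below 0 and the outer means lie 2 or more SD of a component apart. On the levels as deposited 0 members were called, against 1.23% of all genes, and the gain of Hspa9 was -0.462. After removal of the components 1 of 68 members was called, Hspa9, against 1.69% of all genes, so the count is near the background. Its gain was 45.6, and 74, 112 and 62 animals fell to components at -0.105, 0.0128 and 0.104 with a within-component SD of 0.0291. The outer means differed by a factor of 1.61. Genotypes are not analysed here.

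**Figure D3:**
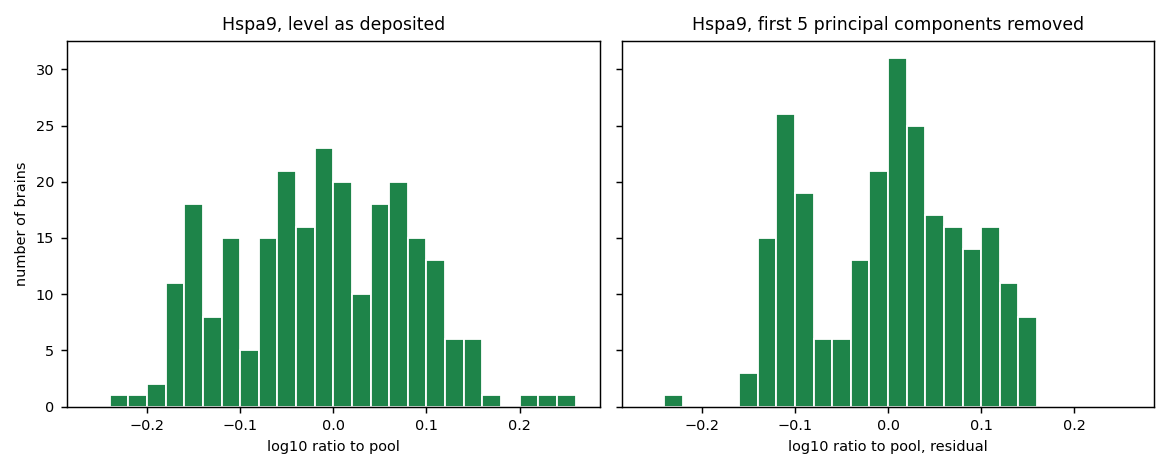
Number of brains (n = 248) by level of Hspa9, as the log10 ratio of animal to pool in bins of 0.02. On the left are the levels as deposited and on the right the residuals after the first 5 principal components of all genes were removed. On the right a separate low peak near -0.1 and a main peak above 0 with a shoulder near 0.1 can be seen.

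Cryab, the small heat shock protein alphaB-crystallin, is abundant in oligodendrocytes and astrocytes. Its level had an SD of 0.0767 and ran from -0.415 in animal 336 through -0.0109 to 0.230 in animal 178. With it 21 of 67 members were higher and 25 lower, against 32.1% and 31.9% of all genes. With the components 31 were higher and 6 lower, against 15.1% and 16.8%.

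Among the members higher with Cryab were several of the ER and Hspb1. Calr had r of 0.753 and rho of 0.701 (n = 247), Pdia4 0.688 and 0.646, Sdf2l1 0.517 and 0.474 and Hspb1 0.633 and 0.620 (n = 248). With the components they had 0.570, 0.395, 0.519 and 0.544. Hspbp1 had 0.644 (n = 248) and Dnajc11 0.351 (n = 239). Genes that are no members and were closest to Cryab were the small GTPase Rhoc at 0.751, the gene given as TIMM50, a mitochondrial translocase, at 0.732, the mediator subunit Med9 at 0.713 and the splicing factor Hnrnpdl at -0.712.

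Cct8, Dnaja1 and Dnajc2 were lower with Cryab in the levels as deposited, and the sign of the first 2 turned with the components. Cct8 had r of -0.588 and rho of -0.499 (n = 247), and 0.0990 with the components (adjusted p 0.241). Dnaja1 had -0.476 and rho of -0.491 (n = 247), and 0.155 with them. Dnajc2 stayed below 0, from -0.525 (n = 247) to -0.199. Cct8 and Calr had r of -0.781 and rho of -0.743 (n = 246), and 0.152 with the components, while Cct8 and Dnaja1 had 0.784 and 0.808 (n = 247), and 0.297. Dnaja1 and Hspa4l were the closest cytosolic pair at 0.738 (n = 247), and had 0.289 with the components.

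Several markers of oligodendrocytes also rose with Cryab. Of 9 measured, 5 were higher and 1 lower, at a median r of 0.250, against 32.1% and 31.9% of all genes. With the components 5 were higher, against 15.1% of all genes. The myelin enzyme Cnp had r of 0.418, the tight junction protein Cldn11 0.363, Mag 0.361 and Mal 0.298, and Aspa had -0.528. Of 8 microglial markers 6 were higher with Cryab, at a median r of 0.319, against 32.1% of all genes. With the components 1 was higher, against 15.1% of all genes, which is near the background. Of 9 astrocyte markers 2 were higher and 3 lower with Cryab, at a median r of -0.108, against 32.1% and 31.9% of all genes. With the components 4 were higher and 1 lower, at a median r of 0.109. The part of these markers in the values of Cryab was not tested. Hspb2, which adjoins Cryab on chromosome 9, had r of 0.0289 with it (n = 248, permutation p 0.648), rho of 0.0685 (p 0.283) and r of -0.203 with the components.

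The small heat shock genes of muscle varied little and were not close. The highest pair was Hspb3 with Hspb7 at r of 0.196 over all animals and 0.125 in the larger component (n = 238, permutation p 0.0553) and rho of 0.0610 (p 0.348), and the lowest was Hspb3 with Hspb6 at -0.118 over all animals and -0.0985 in the larger component (n = 246, permutation p 0.123) and rho of -0.0988 (p 0.121). Of 6 measured skeletal muscle markers 1 was higher and 1 lower with Cryab, against 32.1% and 31.9% of all genes. Among the other J-proteins the highest pair was Dnajb12 with Dnajc4 at 0.647 over all animals and 0.524 in the larger component (n = 236). The lowest was Dnajb12 with Dnajc8 at -0.530 over all animals and -0.302 in the larger component (n = 232, permutation p of rho 0.00036).

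**Figure D4:**
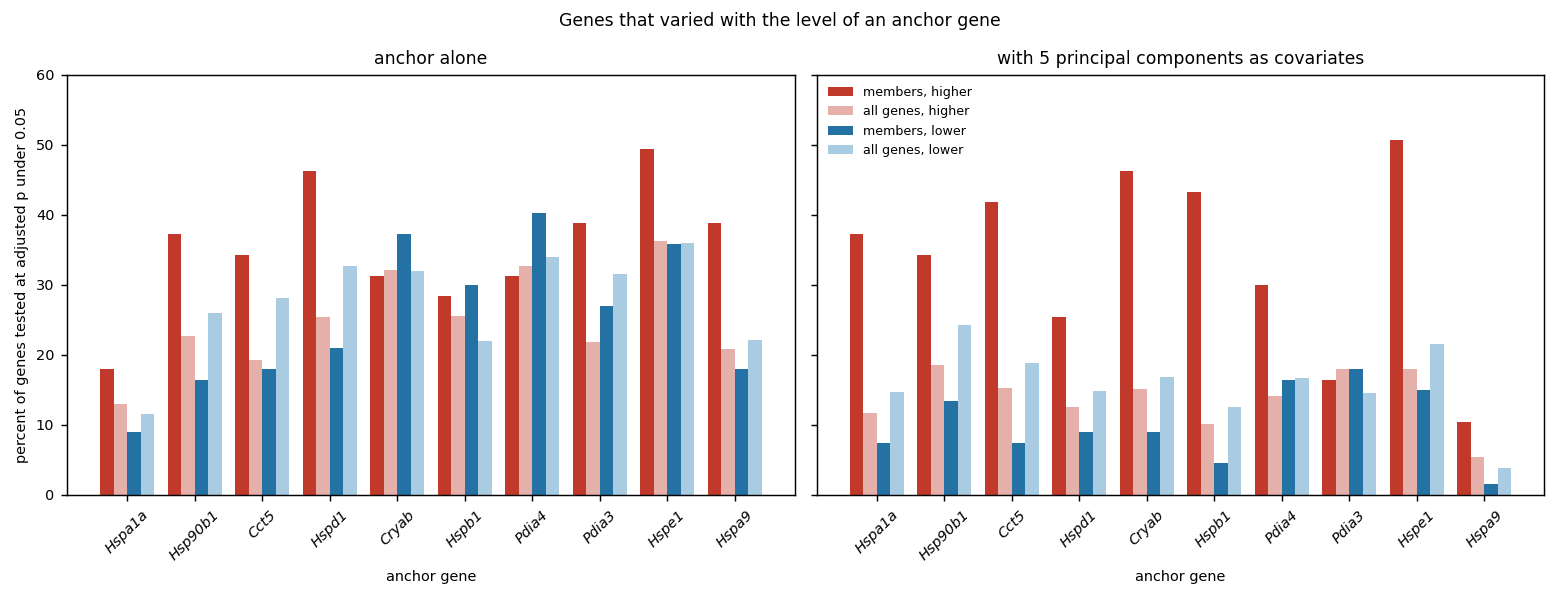
Percent of 67 members (dark bars) and of all 11507 other genes (pale bars) called higher (red) or lower (blue) with each anchor gene by limma at an adjusted p under 0.05. The left panel has the anchor alone and the right panel adds 5 principal components as covariates. On the right the dark red bars of Hspa1a, Cct5, Cryab, Hspb1 and Hspe1 stand between 37.3 and 50.7 percent, above pale red bars between 10.1 and 17.9 percent.

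With the components as covariates the members called higher exceeded the share of all genes for 9 of these 10 anchors, the exception being Pdia3. Of the 10, Hspb1, Pdia4, Pdia3, Hspe1 and Hspa9 were added outside the rule of 1 anchor per role and are among the members of largest SD. The number of members called lower was below it for 8 of them, with Pdia3 above and Pdia4 close to it. Hspb1 had 29 members higher and 3 lower there, against 10.1% and 12.6% of all genes, after 19 and 20 without the components, against 25.5% and 22.0%. Pdia4 had 20 and 11, against 14.1% and 16.7% of all genes, after 21 and 27, against 32.6% and 34.0%. Hspa9 had 7 and 1, against 5.47% and 3.88%, after 26 and 12, against 20.8% and 22.1%. The fits share the same animals and members, so these counts are not independent of each other.

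**Figure D5:**
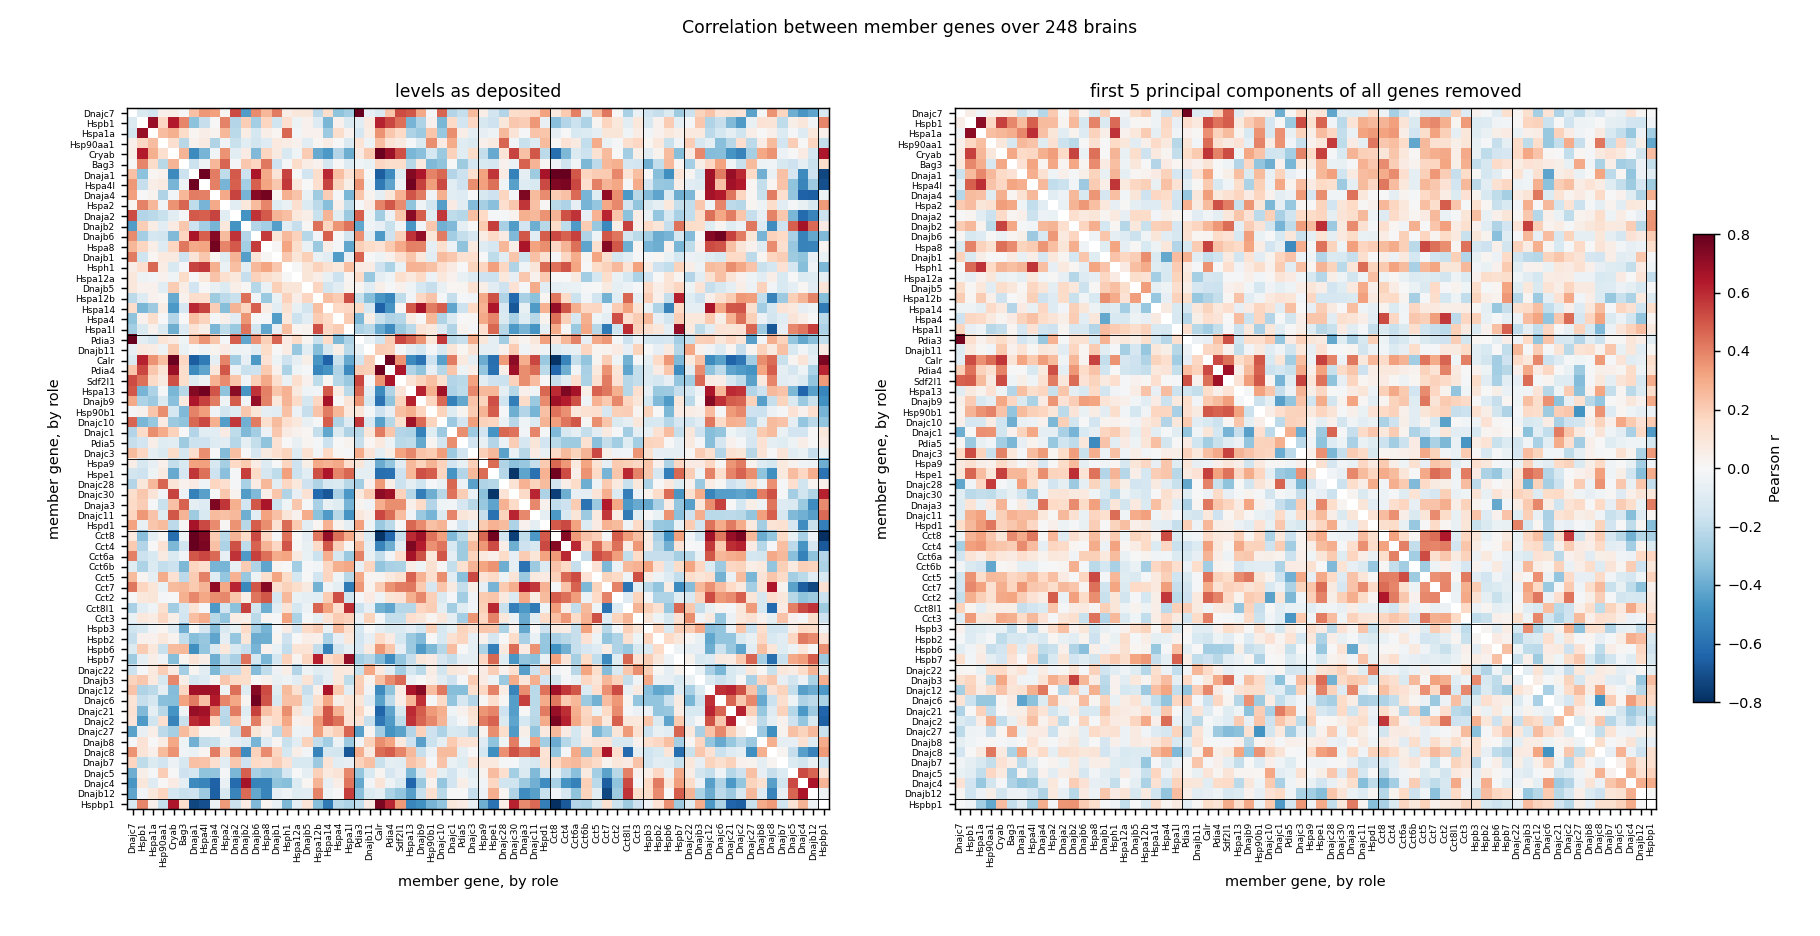
Pearson r between each pair of 68 member genes over 248 brains, blue below 0 and red above 0, with lines between roles. The left panel has the levels as deposited, with strong values of both signs across roles such as that of Cct8 with Calr, and the right panel has the levels after the first 5 principal components of all genes were removed, where most strong values are gone and those of Hspa1a with Hspb1, of Pdia4 with Sdf2l1 and of Pdia3 with Dnajc7 remain.

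Probes of 1 gene gave a limit to these readings. Over the 116 pairs of probes in the 13 genes with several, the median r was 0.201, 32 pairs lay below 0 and 12 above 0.8. Hspe1 at 0.985, Dnajc2 at 0.950 and Calr at 0.733 had probes that moved together. Of the 4 probes of Dnaja1, 3 had r between 0.795 and 0.910 with Cct8 and the remaining one -0.000908. Hspa8, the constitutive Hsp70, had a median of 0.306 over 36 pairs of probes. The other 55 member genes in the fits were read by 1 probe each.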

How the data were processed

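The authors deposited 1 log10 value (animal over pool) per probe and 2-colour array. Scanner and normalization: not given in the sources used here. Array medians lay between -0.00627 and 0.0250 and values were limited to -2 and 2. No further normalization was applied. Of the values 0.711% were missing and were filled with the probe's mean. Gene names came from the platform's probe annotation, and promoters from RefSeq (GRCm38.p6).

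Each gene was the mean of its single-symbol probes measured on at least 90% of arrays. All genes were regressed on each anchor with limma 3.58.1 in R 4.3.3, with Benjamini-Hochberg adjustment over 11507 genes and a threshold of 0.05. Pairs had 100000 two-sided permutations of animals (scipy 1.17.1). The text names the 8 members of largest and 3 of smallest SD, the anchors with up to 10 called members and up to 8 other genes each, the extreme pairs of each role, and up to 4 genes of each pathway list. From these some were left out for length. Members, lists and tests were chosen with earlier results of these data known. Sex, genotype and batch of each animal were not used, so p-values measure the spread between animals of mixed sex. The scripts were tested on simulated data. Alternatives were 12 planned settings and others added after seeing the data.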

Additional observations from a re-analysis of the deposited data

Results flagged for a closer look

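The array of animal 144, which entered none of the comparisons, lay outside the range of the other 248 arrays for 19 of 68 member genes, 9 above and 10 below, and within it for 49. The share of all genes outside the range on this array is not given here, so the 19 are not read as particular to the members. Dnajc6, the clathrin-uncoating cofactor, was at -1.40 on this array, against -0.472 to 0.133 elsewhere.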

How the results depend on the processing

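Over 19 counts and medians and 18 settings, 235 of 259 values stayed within 1.5 times the main count or 1 SD, and 24 moved. With the 5 components as covariates 25 members were higher with Hspa1a, 17 higher and 6 lower with Hspd1, 5 lower with Cct5 and 6 lower with Cryab. With the probe of largest SD in place of the mean, 1 member was lower with Hspa1a and 3 were higher and 0 lower with Hspd1. In the animals with higher numbers alone 1 was lower with Hspa1a, 7 with Hsp90b1 and 8 with Hspd1, and in those with lower numbers 14 were higher and 7 lower with Cct5. Ranks gave 15 lower with Hspa1a, and an adjusted p under 0.01 gave 7 lower with Hsp90b1. Probes measured on every array gave a median r of -0.0434 among the muscle small heat shock genes. Members among the 10% of genes with the largest SD numbered 9 without the 12 arrays of largest SD over probes, 8 with the probe of largest SD, 8 with each array divided by its SD and 3 in the lower numbers. Of the members 1 was discrete with each array divided by its SD (Hspa9), with quantile normalization (Dnajc30), in the lower numbers (Hspa9) and after removal of the components (Hspa9), the last an alternative chosen after seeing the data. The cause of these moves was not tested.

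Over 77 pairs, 999 of 1072 values kept their direction and side of the threshold, 45 lost the call, 12 gained it and 16 turned. With the probe of largest SD r was -0.00744 for Hspd1 with Cct4, -0.00858 with Hspa4l, -0.0227 with Hspa13 and -0.0181 with Hsph1, 0.0649 for Cryab with Dnaja1 and -0.000908 for Cct8 with Dnaja1. With the components it was -0.0614 for Hspd1 with Dnajb6 and -0.0469 with Hspa13. It was 0.0990 for Cryab with Cct8, -0.121 with Dnajc30, 0.155 with Dnaja1 and -0.203 with Hspb2. It was 0.208 for Calr with Dnajb9, -0.118 for Dnajc11 with Dnajc30 and 0.152 for Cct8 with Calr. With the array of animal 144 included Hspb1 and Hsph1 had -0.220. The cause was not tested. Leaving out the 4 animals at many extremes and adjusting for Eif2s3y were also chosen after seeing the data.

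No paired analysis was possible because the animals form 1 group. Each animal had 1 array, so technical error cannot be told apart from variation between animals, and 55 members rest on 1 probe.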
